A study of Mus musculus with 23 samples.

Results

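The genes of fatty acid oxidation and ketone body formation were followed across 23 mouse liver arrays in which beta-catenin had been removed from hepatocytes or left in place, with and without phenobarbital. The group is a list of 40 genes taken by symbol: 21 for mitochondrial oxidation and ketogenesis, 13 for peroxisomal oxidation and 6 other targets of PPARalpha. Each gene was read from its brightest probe set that is assigned to no other gene. Of the 40 genes, 38 had such a probe set and 37 passed the filter on low signal and were tested, among 18193 genes measured and 13826 tested in all. Acsl1 is named only. Cyp4a10 shares its probe set with Cyp4a31 and was left out. Cyp4a14 read lower than an array's 40th percentile, the level the filter asked for (on average 4.56), on all 23 arrays, with group means from 3.89 to 3.99. The counts below are therefore over 37 genes, 20 mitochondrial, 13 peroxisomal and 4 other targets, and not over the whole list.

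The livers came from male C3H mice in 4 groups. Wild-type mice served without phenobarbital (n = 5) and with 0.05% phenobarbital in the diet for 12 weeks (n = 4). Ctnnb1 knockout mice were taken without (n = 7) and with (n = 7) the same diet. Cre recombinase under the albumin promoter cut Ctnnb1 between loxP sites around exons 3 and 6. This promoter is active in hepatocytes, and liver cells in which it is silent, such as macrophages, keep the gene. Whether the wild-type mice carried Cre or loxP alleles, and the age of the mice, are not given in the sources used here. For controls the labels give water as the vehicle, whereas the treatment description speaks of a diet free of phenobarbital. Replicates are numbered, but the labels do not tie each to an animal of its own. The p values below therefore measure the spread between these samples, which may be technical.

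Fatty acids enter mitochondria as carnitine esters and are shortened there in repeated turns of dehydrogenation, hydration, dehydrogenation and thiolysis. The liver turns much of the resulting acetyl-CoA into ketone bodies, the fuel it exports in fasting. Peroxisomes carry out a parallel pathway for very long and branched chains, and the nuclear receptor PPARalpha switches on genes of both organelles. Beta-catenin carries the canonical Wnt signal into the nucleus and sustains gene expression around the central vein, while fatty acid oxidation is usually placed towards the portal side of the lobule. Phenobarbital acts in hepatocytes mainly through the nuclear receptor CAR.

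Signals are log2 values, and a difference of 1 is a 2-fold change. The median array signal ranged only from 5.09 to 5.14. Ctnnb1 itself read 12.18 to 12.23 in wild-type controls and 12.11 to 12.42 in knockout controls. It did not pass the test (log2 difference 0.05, SE 0.05, adjusted p = 0.538), and where its probe set lies relative to the deleted exons is not given, so it checks nothing. The beta-catenin-dependent glutamine synthetase gene Glul separated the genotypes instead, at 12.13 to 12.48 in wild-type controls and 8.07 to 9.87 in knockout controls, and so did the pericentral Cyp2e1 (log2 difference -5.05). Phenobarbital treatment was visible in Cyp2b10, the classical CAR target, which rose from 5.68 ± 0.39 to 12.64 ± 0.05 in wild type (mean ± SD, n = 5 and 4). Many markers of other liver cells were higher in knockout livers. Of 11 tested macrophage markers 9 were called higher without phenobarbital and 7 with it, and the endothelial (6 and 5 of 7) and stellate (6 and 4 of 8) markers moved the same way. Fewer lymphocyte (2 and 1 of 6) and cholangiocyte (2 and 1 of 4) markers were called higher. The lymphocyte marker Cd4 was called lower without phenobarbital. Of all genes, 14.8% and 11.9% were called higher. The macrophage mean per array was 6.29 to 6.85 in all wild-type livers, 6.95 to 9.41 in knockout controls and 6.88 to 8.82 in knockouts given phenobarbital. The mean of 4 adipocyte markers was 6.52 to 6.64 in all wild-type livers and 6.39 to 6.54 in treated knockouts. In knockout controls it ran from 6.35 to 7.71, highest on replicate 4. Whether fat tissue has a part in any signal was not tested. The hepatocyte marker mean stayed between 13.70 and 14.05 on every array, close to the highest signal measured (14.92). In a liver extract, fewer cells of a type and less RNA per cell cannot be told apart. Knockout control replicates 2, 6 and 7 stood apart: limma's array weights, estimated over all tested genes, were 0.54, 0.324 and 0.21 for them against 0.664 to 2.21 for the other 20 arrays. Calls of members that rest on knockout controls are therefore given with and without these 3 arrays. For other genes only some are given both ways.

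The knockout was compared with wild type first without phenobarbital, which asks how the genotypes differ in untreated livers. The data show lower signals scattered over the pathway. Pdk4, a brake on glucose oxidation, was 3.16-fold lower and the thioesterase Acot1 2.07-fold lower, while enzymes inside the oxidation spiral fell by much smaller amounts. Of 37 members 9 fell and 0 rose (limma, Benjamini-Hochberg adjusted p under 0.05 over all tested genes). That is 24.3% of the members lower against 10.1% of all genes, and 0.0% higher against 14.8% of all genes. At an unadjusted p under 0.05, 11 members were lower and 4 higher. The share of all genes at that threshold was not counted, so these 2 counts have no background. Without knockout control replicates 2, 6 and 7 the counts were 4 lower (Bdh1, Eci2, Acot1 and Pdk4) and 4 higher, the latter Abcd2 (1.08, adjusted p = 0.00355), Acot2 (0.50, 0.0211), Hadha (0.37, 0.00177) and Hadh (0.16, 0.0337). Leaving out knockout control replicate 7 alone also gave 4 higher, and leaving out knockout control 2, wild-type control 4 or treated knockout 2, 5 or 7 gave 1. Over all genes, 3453 were called in either direction in the main fit and 1535 (11.1%) without knockout control replicates 2, 6 and 7. How these 1535 split into higher and lower was not counted, so the 4 lower and 4 higher members have no background by direction. The median log2 difference of the members was -0.14, against -0.0047 over all genes tested, and 28 of 37 members were below 0, against 51.1% of all genes. The falls comprised 5 of 20 mitochondrial genes, 2 of 13 peroxisomal genes and 2 of 4 other targets.

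**Figure D1:**
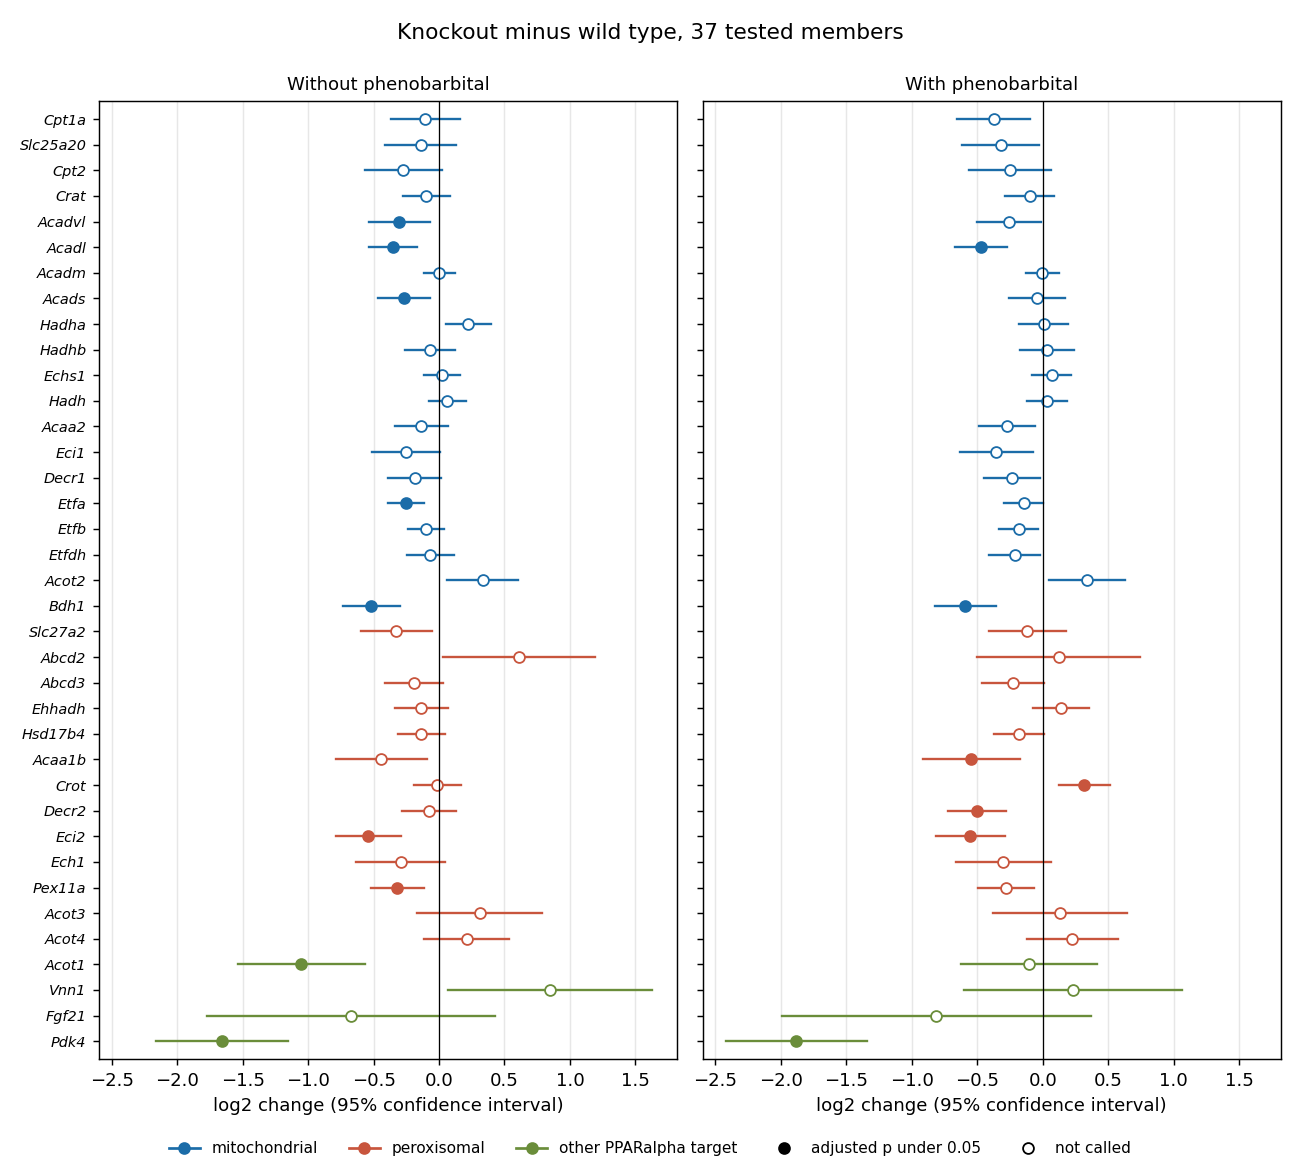
Log2 difference of knockout minus wild type (points) with 95% confidence intervals (bars) for the 37 tested members, without phenobarbital on the left and with it on the right. Filled points have an adjusted p under 0.05; colours mark mitochondrial genes, peroxisomal genes and other PPARalpha targets. Pdk4 lies farthest to the left in both panels, at -1.66 and -1.88, and the mitochondrial points lie between -0.6 and 0.4.

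Among the mitochondrial genes, Bdh1 fell most. It encodes 3-hydroxybutyrate dehydrogenase, which interconverts the ketone bodies acetoacetate and 3-hydroxybutyrate. The 5 wild-type controls read 11.05, 11.13, 11.09, 11.52 and 11.08, and the 7 knockout controls had a lowest value of 10.31, a median of 10.78 and a highest of 10.94. Every knockout array lay below every wild-type array. The difference was -0.52 (SE 0.10, 95% interval -0.74 to -0.30, adjusted p = 0.00137, 1.43-fold lower). A second Bdh1 probe set fell as well, by 0.56 (SE 0.11). The call held under all 34 alternative settings (adjusted p 0.000516 to 0.0211), and without knockout control replicates 2, 6 and 7 the difference was -0.44 (adjusted p = 0.0136).

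The acyl-CoA dehydrogenases open each turn of the spiral and divide the work by chain length. Acadl, for long chains, read 11.24, 11.18, 11.37, 11.52 and 11.29 in wild-type controls and from 10.65 to 11.19 with a median of 11.07 in knockout controls. The highest knockout arrays just reached the lowest wild-type arrays. The difference was -0.35 (SE 0.09, adjusted p = 0.00732). It was -0.17 (adjusted p = 0.111) without knockout control replicates 2, 6 and 7, the 1 alternative of 34 that ended the call (range 0.00342 to 0.111). Acadvl, for very long chains, read 11.70, 11.58, 11.69, 11.82 and 11.78 in wild type and 11.00 to 11.75 (median 11.42) in knockout, a difference of -0.30 (SE 0.11, adjusted p = 0.0495). Acads, for short chains, read 9.46, 9.43, 9.47, 9.66 and 9.48 against 8.92 to 9.46 (median 9.31), a difference of -0.27 (SE 0.10, adjusted p = 0.046). In both genes the arrays of the groups overlapped, and knockout controls 3, 4 and 5 lay within the wild-type range, or in 1 case (Acads in control 5, at 9.40) just below it. Both calls were marginal. That of Acadvl ended under 24 of 34 alternatives (adjusted p 0.0172 to 0.58), and leaving out any 1 of the 5 wild-type controls (0.0529 to 0.108), any 1 of knockout controls 1, 2, 6 and 7 (0.0651 to 0.107) or single phenobarbital arrays ended it. That of Acads ended under 21 (0.0241 to 0.498), likewise without any 1 of the 5 wild-type controls (0.0598 to 0.119) or of knockout controls 1, 2, 6 and 7 (0.0503 to 0.1). Without knockout control replicates 2, 6 and 7 the differences were -0.09 (adjusted p = 0.58) and -0.10 (0.498). Acadm, the medium-chain enzyme, differed by 0.00 with a 95% interval from -0.12 to 0.12.

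Electrons from the dehydrogenases pass to the electron transfer flavoprotein, whose subunits are Etfa and Etfb, and on to the respiratory chain through Etfdh. Etfa read 12.38, 12.39, 12.47, 12.44 and 12.37 in wild-type controls and 11.94 to 12.32 (median 12.22) in knockout controls. No array of the groups overlapped, although the gap was narrow. Etfa fell by 0.25 (SE 0.07, adjusted p = 0.00868). Without knockout control replicates 2, 6 and 7 the difference was -0.14 (adjusted p = 0.122). This was 1 of 2 alternatives of 34 that ended the call (range 0.0042 to 0.122). Etfb (-0.10, interval -0.24 to 0.04) and Etfdh (-0.07, interval -0.25 to 0.11) did not pass.

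The carnitine shuttle did not pass the test in this comparison. Cpt1a, the gatekeeper at the outer membrane, differed by -0.11 (SE 0.13, adjusted p = 0.564), the translocase Slc25a20 by -0.14 (SE 0.13), Cpt2 at the inner membrane by -0.27 (SE 0.14) and the acetyl-carnitine enzyme Crat by -0.10 (SE 0.09). Its probe sets disagree for Cpt1a: the other 2 were called lower, with differences of -0.50 and -0.43 (adjusted p = 0.0298 and 0.0293). The later steps of the spiral lay close to 0. Hadhb, Echs1 and Hadh differed by -0.07, 0.02 and 0.06, and the thiolase Acaa2 by -0.13. The auxiliary enzymes for unsaturated chains, Eci1 and Decr1, differed by -0.25 and -0.19. On the higher side stood Hadha (0.22, SE 0.08, adjusted p = 0.0538) and the matrix thioesterase Acot2 (0.33, SE 0.13, adjusted p = 0.0634). All 20 mitochondrial intervals excluded a change of 2-fold or more in either direction.

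Hadha and Hadhb, the subunits of the mitochondrial trifunctional protein, are transcribed head to head from starts 273 bases apart. Their shared upstream stretch is shown because both genes read from it in opposite directions: RefSeq, GRCm38.p6, chr5:30155003-30155230, 228 bases on the Hadhb strand, with no capitals since no searched motif lies in it.
Hadha and Hadhb shared: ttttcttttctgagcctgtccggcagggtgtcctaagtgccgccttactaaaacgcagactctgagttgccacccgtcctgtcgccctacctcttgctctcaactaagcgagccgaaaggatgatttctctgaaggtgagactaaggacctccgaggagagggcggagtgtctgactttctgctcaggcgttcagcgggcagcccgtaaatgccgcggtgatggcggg
Without phenobarbital Hadha read 9.11 to 9.31 in wild type and 9.13 to 9.68 in knockout, and Hadhb 11.17 to 11.30 and 10.80 to 11.44. Both genes spread more widely in the knockout. Knockout controls 3, 4 and 5 were the highest of their group in both genes (9.58, 9.62 and 9.68 for Hadha, 11.44, 11.29 and 11.29 for Hadhb), and controls 2, 6 and 7 the lowest.

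In the peroxisome, Eci2 and Pex11a fell. Eci2 is an enoyl-CoA isomerase needed for unsaturated chains and is found in mitochondria too. Its wild-type controls read 10.23, 10.04, 9.96, 10.49 and 10.37, and its knockout controls 9.09 to 9.95 (median 9.77). The highest knockout array stayed just under the lowest wild-type array. The difference of -0.54 (SE 0.12, adjusted p = 0.00262, 1.45-fold lower) held under all 34 alternatives (0.00142 to 0.0283), and was -0.36 (adjusted p = 0.0194) without knockout control replicates 2, 6 and 7. Pex11a, which promotes the division of peroxisomes, read 9.39, 9.11, 9.03, 9.03 and 9.36 in wild type against 8.48 to 9.10 (median 8.87) in knockout. Here the groups overlapped. Pex11a fell by 0.32 (SE 0.10, adjusted p = 0.0205), and a second probe set fell by 0.34 (SE 0.10). Its call ended under 6 of 34 alternatives, among them array weights (0.0682), a fit of only the groups compared (0.0679), and fits without wild-type control replicate 1 (0.0638) or 5 (0.0605) and without knockout control replicates 2, 6 and 7 (-0.19, adjusted p = 0.213; range over the alternatives 0.0101 to 0.213).

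The other 11 peroxisomal genes did not pass. The acyl-CoA synthetase Slc27a2 (-0.33, adjusted p = 0.0732) and the thiolase Acaa1b (-0.44, adjusted p = 0.057) were the nearest on the lower side. Ehhadh and Hsd17b4, the bifunctional enzymes that hydrate and dehydrogenate, differed by -0.13 and -0.14, the importer Abcd3 by -0.19, the dienoyl-CoA isomerase Ech1 by -0.29 and the reductase Decr2 by -0.08. Crot, which makes octanoyl-carnitine for export from the peroxisome, differed by -0.01. The importer Abcd2 (0.61, interval 0.03 to 1.19) and the thioesterases Acot3 (0.31, interval -0.17 to 0.79) and Acot4 (0.21, interval -0.11 to 0.54) were above 0 and varied widely.

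Pdk4 showed the largest fall of all members. It encodes pyruvate dehydrogenase kinase 4, a PPARalpha target that blocks the entry of pyruvate into the citric acid cycle when fatty acids are burned. Wild-type controls read 7.21, 7.58, 7.96, 7.06 and 6.08, and knockout controls 4.93 to 6.16 with a median of 5.56. A single array of each group overlapped, wild-type control 5 and knockout control 1. The difference was -1.66 (SE 0.24, 95% interval -2.16 to -1.15, adjusted p = 5.79e-05). It held under all 34 alternatives (2.05e-06 to 0.00308), at -1.58 without knockout control replicates 2, 6 and 7. The lowest knockout controls read not far above the filter level (on average 4.56), so the size of the fall is less certain than its direction. Skeletal muscle also expresses Pdk4, and the mean of 5 muscle markers was 5.72 on wild-type control 3, the array with the highest Pdk4, against 4.25 to 4.53 on the other arrays. Without wild-type control replicate 3 the difference was -1.47 (adjusted p = 0.000263). The region upstream of Pdk4 is shown for this most stable fall: RefSeq, GRCm38.p6, chr6:5496278-5496528, minus strand, written 5′ to 3′ with the start base in capitals.
Pdk4: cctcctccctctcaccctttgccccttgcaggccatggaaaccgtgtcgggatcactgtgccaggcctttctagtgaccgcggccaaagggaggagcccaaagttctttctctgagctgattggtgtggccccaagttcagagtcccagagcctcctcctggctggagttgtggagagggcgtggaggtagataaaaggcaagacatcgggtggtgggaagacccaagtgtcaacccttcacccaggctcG

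**Figure D2:**
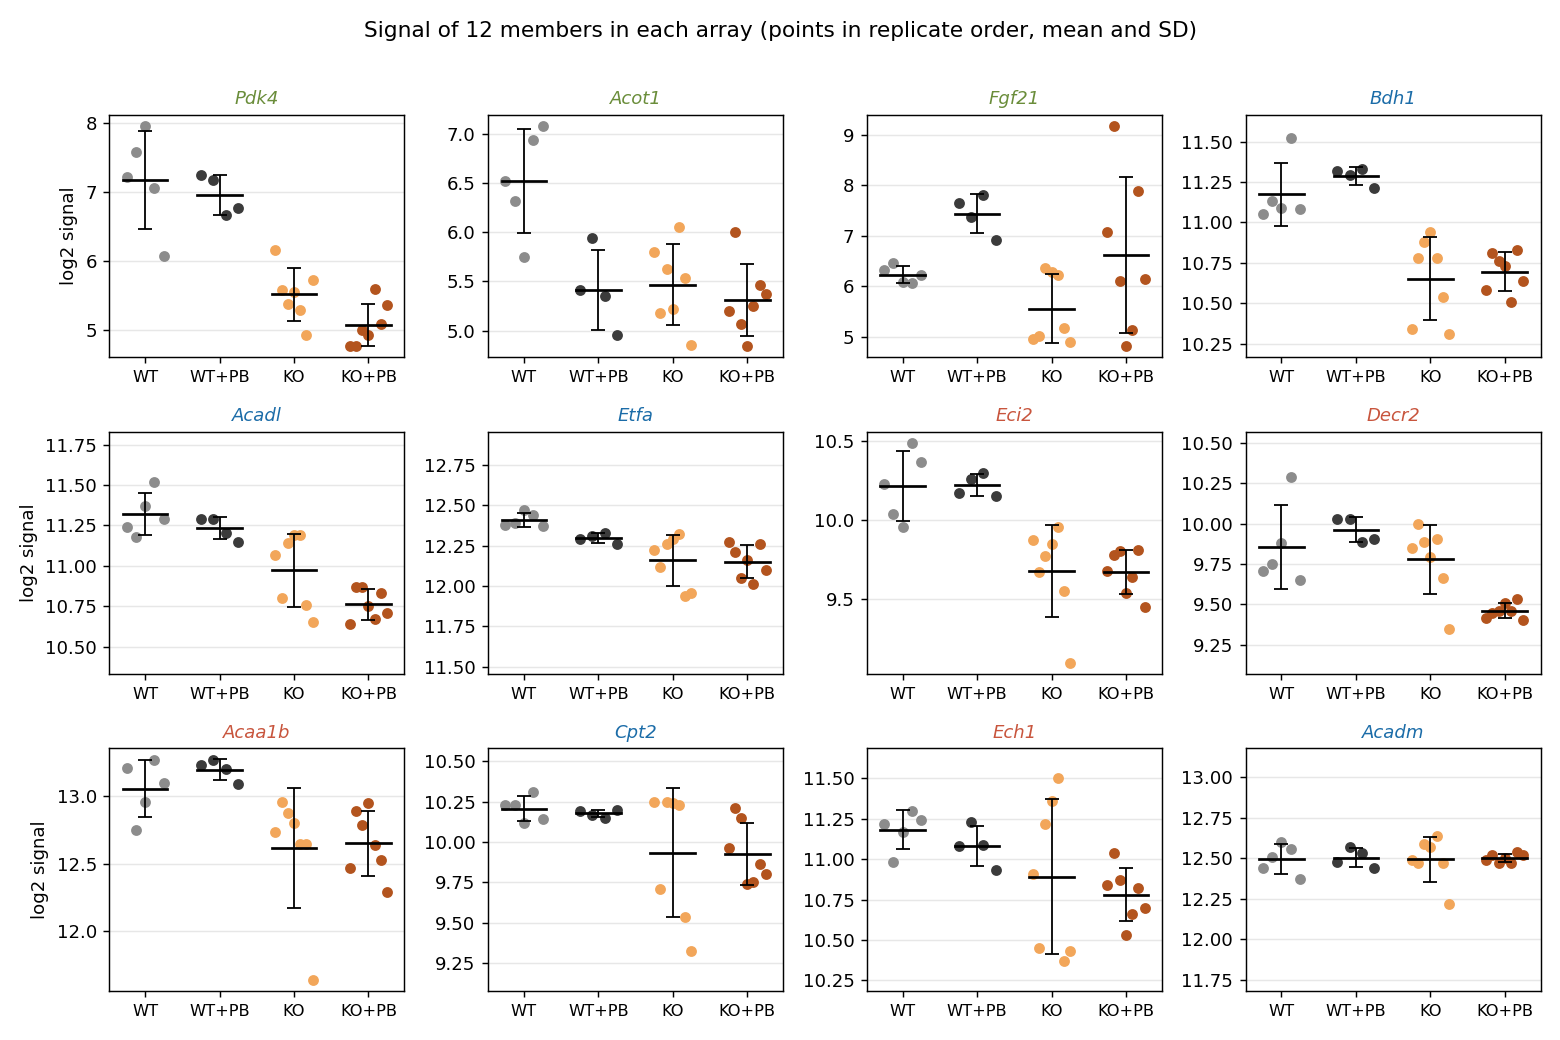
Log2 signal of 12 members on each array (points, in replicate order) with the group mean (line) and SD (bar); WT is wild type, KO the Ctnnb1 knockout and PB phenobarbital, and each panel has its own vertical scale that does not start at 0. Pdk4 and Bdh1 are lower in both knockout groups, Acot1 is high only in wild-type controls, and Cpt2 and Ech1 split the knockout controls.

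Acot1, a cytosolic enzyme that releases free fatty acids from acyl-CoA, was high in wild-type controls and low in the 3 other groups. Its wild-type controls read 6.51, 6.32, 5.75, 6.94 and 7.08, the wild-type livers given phenobarbital 5.41, 5.94, 5.35 and 4.96, the knockout controls 4.85 to 6.06 (median 5.54) and the knockouts given phenobarbital 4.84 to 6.00 (median 5.25). Wild-type control 3 was the only array of its group inside the range of the others. The lowest arrays of the 3 low groups read not far above the filter level (on average 4.56). Whether differences among these groups could still show there was not tested. Without phenobarbital the knockout was lower by 1.05 (SE 0.23, adjusted p = 0.00292; 0.000774 to 0.0396 over the 34 alternatives, all of which kept the call), with -0.84 without knockout control replicates 2, 6 and 7. Under phenobarbital the genotypes differed by -0.10 (interval -0.62 to 0.42). The interaction, the response to phenobarbital of the knockout less that of wild type, was 0.95 (interval 0.24 to 1.66) with an adjusted p of 0.276 and did not pass.

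Acot1 lies on chromosome 12 in a row of thioesterase genes in the order Acot2, Acot1, Acot4 and Acot3, with the non-coding Gm40474 between Acot1 and Acot4. These genes are similar enough that 1 further probe set, not used here, is assigned to both Acot1 and Acot2, and whether their signals mix was not tested. The neighbours did not show the pattern of Acot1: Acot2, Acot4 and Acot3 differed by 0.33, 0.21 and 0.31 between the genotypes without phenobarbital. Whether they differ from Acot1 was not tested. The upstream regions of Acot1 (chr12:84009252-84009502, plus strand) and Acot4 (chr12:84038129-84038379, plus strand) are shown because these neighbours have opposite signs (RefSeq, GRCm38.p6, 5′ to 3′). Capitals mark the letters CTTTGAT, a core of TCF/LEF sites, in Acot1 and a match to the PPAR element called DR1, on the minus strand, in Acot4.
Acot1: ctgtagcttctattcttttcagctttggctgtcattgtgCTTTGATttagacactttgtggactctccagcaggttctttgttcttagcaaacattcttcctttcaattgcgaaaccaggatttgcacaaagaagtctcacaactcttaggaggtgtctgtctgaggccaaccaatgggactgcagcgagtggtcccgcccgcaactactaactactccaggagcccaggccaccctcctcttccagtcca
Acot4: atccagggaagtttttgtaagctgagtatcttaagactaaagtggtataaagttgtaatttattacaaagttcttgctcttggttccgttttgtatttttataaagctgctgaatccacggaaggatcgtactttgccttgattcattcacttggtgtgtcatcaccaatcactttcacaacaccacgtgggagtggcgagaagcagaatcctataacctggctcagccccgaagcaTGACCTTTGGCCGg

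The motifs were counted in windows from 250 bases before to 50 bases after the start, which RefSeq gave for 32 of the 40 members. DR1 was taken as AGGTCANAGGTCA, which is 2 direct copies of AGGTCA with 1 base between them, on both strands with at most 2 mismatches. It was found in 4 of 32 members (12.5%), namely Slc25a20, Echs1, Etfa and Acot4, and in 4.4% of 27025 genes. With at most 1 mismatch it was found in 0 of 32 members and 0.644% of genes. CTTTGAT was found in Acot1 alone (1 of 32, against 4.29% of genes), and CTTTGAA in 0 of 32 (against 5.93%). Such matches describe letters in a short window and say nothing of binding. Etfa is the 1 gene with a DR1 match that was also called, and its upstream region (RefSeq, GRCm38.p6, chr9:55512243-55512493, minus strand, 5′ to 3′) is shown with the match, on the opposite strand, in capitals.
Etfa: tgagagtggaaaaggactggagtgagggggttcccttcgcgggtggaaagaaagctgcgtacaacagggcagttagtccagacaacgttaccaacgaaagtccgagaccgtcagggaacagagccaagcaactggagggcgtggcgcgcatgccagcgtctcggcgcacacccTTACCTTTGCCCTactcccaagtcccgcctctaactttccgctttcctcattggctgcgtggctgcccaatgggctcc

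Fgf21 and Vnn1 did not pass between the genotypes. Fgf21 encodes a hormone that the liver secretes under PPARalpha control. It read 6.07 to 6.46 in wild-type controls and 4.90 to 6.36 in knockout controls, a difference of -0.67 (interval -1.77 to 0.43). Knockout controls 3, 4 and 5 (6.36, 6.29 and 6.23) read like wild type, while controls 1, 2, 6 and 7 (4.96, 5.01, 5.17 and 4.90) were all lower. Vnn1, a pantetheinase, differed by 0.85 (interval 0.07 to 1.63, adjusted p = 0.102).

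With phenobarbital, knockout and wild type were compared again, which asks whether the genotypes also differ in treated livers. Pdk4, Bdh1, Eci2 and Acadl were lower here as well, and the peroxisomal genes Decr2 and Acaa1b were called in addition. Of 37 members 6 fell and 1 rose, 16.2% and 2.7%, against 8.12% of all genes lower and 11.9% higher. The median difference was -0.18 over the members and 0.0024 over all genes, and 26 of 37 were below 0 (49.6% of all genes). At an unadjusted p under 0.05, 16 members were lower and 2 higher, again without a count over all genes. By place, 2 of 20 mitochondrial genes, 3 of 13 peroxisomal genes and 1 of 4 other targets fell. No array is shared between this comparison and the one without phenobarbital, although the fit takes the spread from all 4 groups.

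Pdk4 in wild-type livers given phenobarbital read 7.24, 7.17, 6.66 and 6.77, and in the knockouts 4.77 to 5.60 (median 5.01). The groups were far apart. It fell by 1.88 (SE 0.26, adjusted p = 2.84e-05, 3.69-fold lower). The knockouts read near the array medians (5.09 to 5.14) and not far above the filter level (on average 4.56). Whether so low a signal still follows the amount of RNA was not tested. Bdh1 read 11.32, 11.29, 11.33 and 11.21 against 10.51 to 10.83 (median 10.73), again with no overlap, and fell by 0.59 (SE 0.11, adjusted p = 0.000888). Acadl read 11.29, 11.29, 11.20 and 11.15 against 10.64 to 10.87 (median 10.75), and fell by 0.47 (SE 0.10, adjusted p = 0.00156, 1.38-fold lower). Each knockout array lay below each wild-type array for these genes. Acadl, unlike in the comparison without phenobarbital, kept its call under all 34 alternatives, as did Pdk4 and Bdh1.

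Peroxisomal genes made up the rest. Eci2 read 10.17, 10.26, 10.30 and 10.15 in wild type and 9.45 to 9.81 (median 9.68) in knockout, and fell by 0.55 (SE 0.13, adjusted p = 0.00417). Decr2, the peroxisomal dienoyl-CoA reductase for polyunsaturated chains, read 10.03, 10.03, 9.89 and 9.90 against 9.41 to 9.54 (median 9.46), and fell by 0.50 (SE 0.11, adjusted p = 0.00213). The 7 treated knockouts lay close together in Decr2, with an SD of 0.05, and below all treated wild-type arrays. Both calls held under all 34 alternatives. Acaa1b, the thiolase that closes the peroxisomal turn, read 13.23, 13.27, 13.20 and 13.09 against 12.29 to 12.95 (median 12.64), and fell by 0.54 (SE 0.18, adjusted p = 0.0362). Its groups did not overlap either, but the call ended without any 1 of the 4 wild-type arrays (0.0837, 0.0834, 0.0803 and 0.0609 for replicates 1 to 4) or of treated knockouts 1, 5, 6 and 7 (0.0571, 0.0541, 0.0551 and 0.0723), within a range of 0.000747 to 0.0837 over all alternatives. Acaa1b has a near-identical copy, Acaa1a, and 2 further probe sets are assigned to both.

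Crot was the 1 member that rose. It read 11.86, 11.95, 11.95 and 11.81 in treated wild type and 12.10 to 12.44 (median 12.14) in treated knockouts, with no overlap, a difference of 0.32 (SE 0.09, adjusted p = 0.0206). The untreated groups read 12.04 to 12.31 and 11.76 to 12.36, so the treated wild-type arrays were the low ones. Without wild-type phenobarbital replicate 2 a further member was called higher. The call of Crot ended without wild-type phenobarbital replicate 1 (0.058) or 4 (0.0693), and with the mean of the probe sets (0.302), since a second probe set differed by -0.11 (range over the alternatives 0.00115 to 0.302).

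Several mitochondrial genes came close under phenobarbital without passing. Cpt1a differed by -0.38 (SE 0.14, adjusted p = 0.0538), Eci1 by -0.35 (0.0682), Acaa2 by -0.27 (0.0682) and Etfb by -0.18 (0.0743). Groups of arrays did not overlap for Cpt1a, Slc25a20, Acaa2, Eci1 and Etfdh, nor for Abcd3 and Pex11a. How many of all genes separate in this way was not counted, so the list has no background. Other probe sets of Slc25a20 (-0.45), Acaa2 (-0.35), Abcd3 (-0.70) and Pex11a (-0.40) were called lower. How many of these genes pass depends on the arrays that set the spread: without knockout control replicates 2, 6 and 7, which are not part of this comparison, 20 members were called lower, and with only the 2 treated groups fitted 17 were. Leaving out knockout control replicate 7 alone gave 12. Over all genes, 2772 were called in either direction in the main fit and 4023 without the 3 arrays. With only the treated groups fitted 3468 were called, and without knockout control replicate 7 alone 3287.

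Phenobarbital against control was compared within each genotype, and few members were called. In wild type 1 of 37 members fell (2.7%, against 1.9% of all genes lower) and 0 rose (against 1.95% higher). In knockout 0 rose and 0 fell, against 1.17% of all genes higher and 0.882% lower. At an unadjusted p under 0.05 the counts were 2 lower and 0 higher in wild type and 5 lower and 1 higher in knockout. The share of all genes at that threshold was not counted here either. The count in knockout depends on the arrays that stood apart: without knockout control replicates 2, 6 and 7, 10 members were called lower. The median effect was 0.0025 in wild type and -0.0097 in knockout, against 0.0079 and 0.0056 over all genes. For the mitochondrial genes the intervals were tight. In wild type all 20 excluded an effect beyond 0.5 on the log2 scale, and in knockout 19 of 20 did so.

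**Figure D3:**
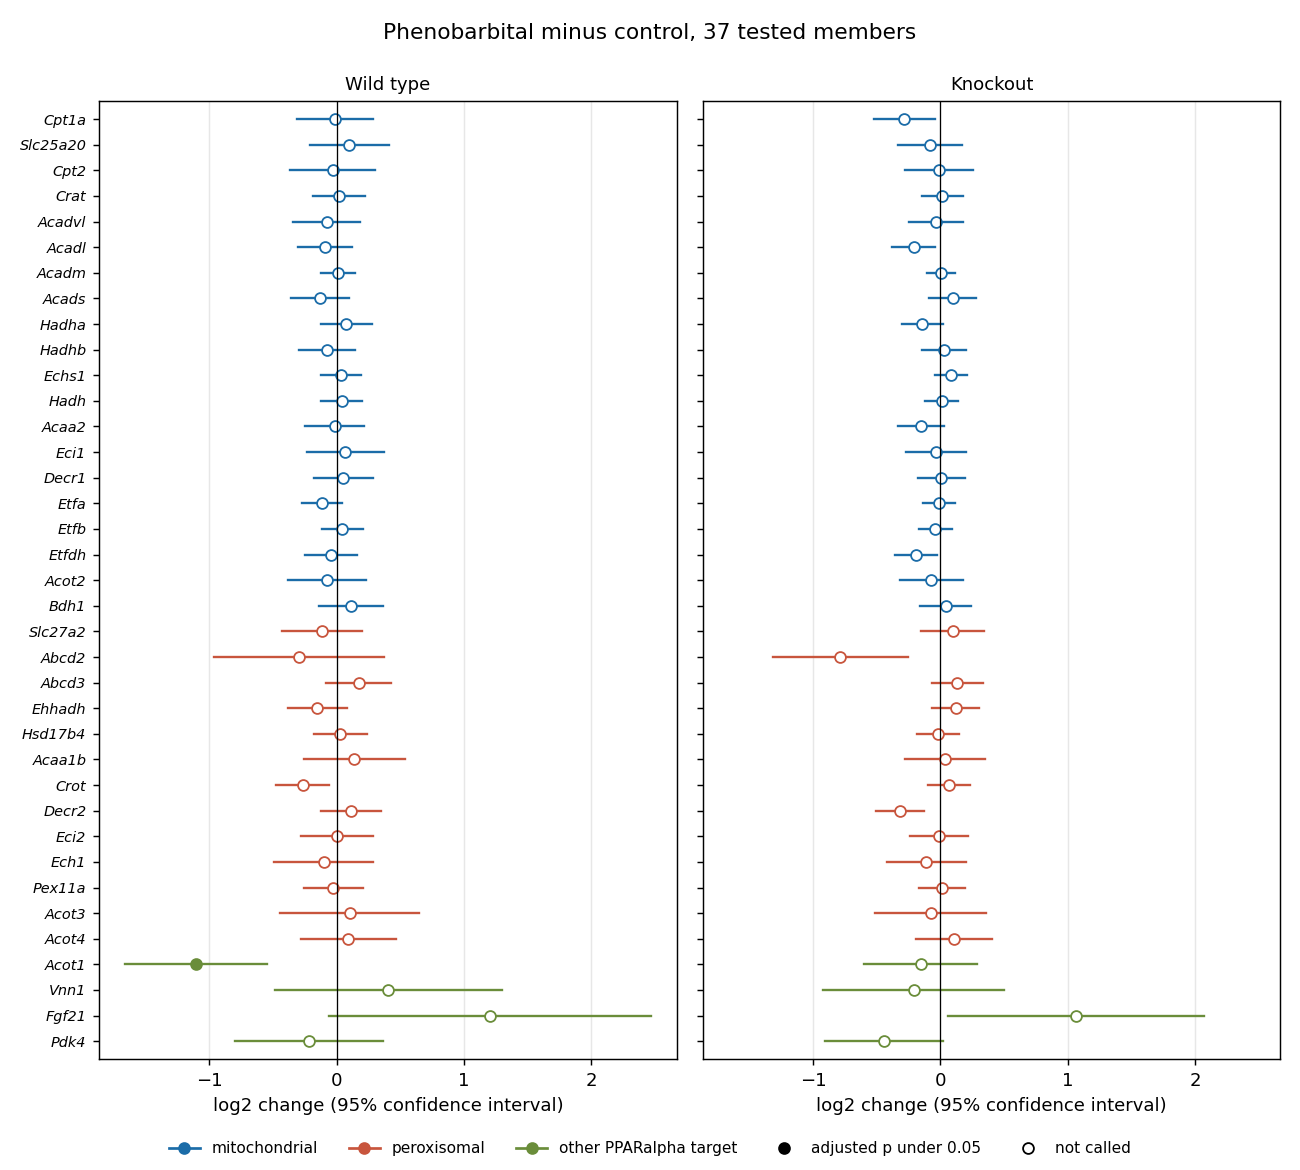
Log2 difference of phenobarbital minus control (points) with 95% confidence intervals (bars) for the 37 tested members, in wild type on the left and in knockout on the right; colours as for the genotype plot. Acot1 in wild type, at -1.10, is the only filled point, and Fgf21 is farthest to the right in both panels, at 1.21 and 1.06, with intervals from -0.06 to 2.47 and from 0.06 to 2.07.

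Acot1 was the gene that fell in wild type, by 1.10 (SE 0.27, adjusted p = 0.0193, 2.15-fold lower) from the values given above. Its call ended without wild-type control replicate 5 (0.0577) or phenobarbital replicates 1 (0.0543), 3 (0.0637) or 4 (0.0876), within a range of 0.00302 to 0.0876. In knockout the effect was -0.15 (interval -0.60 to 0.29). This comparison and that of the genotypes without phenobarbital share the wild-type controls, so the 2 falls of Acot1 rest on the same 5 arrays.

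Fgf21 did not pass in the fit over all groups. Its wild-type groups did not overlap, nor did those of Etfa (-0.11), Abcd3 (0.17) and Crot (-0.26), which did not pass either. How many of all genes separate in this way was not counted. For Fgf21 the wild-type controls read 6.32, 6.46, 6.08, 6.07 and 6.22, and the treated livers 7.64, 7.37, 7.80 and 6.92. The difference was 1.21 (SE 0.61, adjusted p = 0.355), and it was called with only the wild-type arrays fitted (adjusted p = 0.00133). That fit takes the spread from wild-type arrays alone, whereas the treated knockouts ranged from 4.81 to 9.18 (SD 1.55). In knockout the effect was 1.06 (SE 0.48, adjusted p = 0.31). The members nearest to a call in knockout were Decr2 (-0.32, adjusted p = 0.0714) and Abcd2 (-0.78, adjusted p = 0.121). Both were called without knockout control replicates 2, 6 and 7, at -0.40 (adjusted p = 0.0087) and -1.25 (0.0018), as were Acadl (-0.39), Etfdh (-0.34), Slc25a20 (-0.33), Cpt2 (-0.32), Acaa2 (-0.31), Eci1 (-0.30), Hadha (-0.28) and Ech1 (-0.46). That makes 10 of 37 members lower in place of 0, while the genes called in either direction over the whole array went from 284 to 786 (5.68%). Leaving out knockout control 7 alone gave 2, and wild-type control 4 alone gave 1.

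None of the 37 members passed the interaction test in either direction (limma), against 0.354% of all genes higher and 0.521% lower. At an unadjusted p under 0.05, Acot1 (0.95) and Crot (0.33) were higher and Decr2 (-0.43) lower. Their adjusted p values were 0.276, 0.327 and 0.238. The share of all genes at that unadjusted threshold was not counted, so this list has no background. Leaving out knockout controls 2, 6 and 7 brought a call for Decr2 (-0.51, adjusted p = 0.0385), as did leaving out knockout control 7 or wild-type control 4 alone. The intervals of the interaction reach beyond 1 for Acot1, Vnn1, Fgf21 and Abcd2.

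The knockout controls varied more than the wild-type controls in nearly all members. The SD was larger in knockout for 34 of 37 members (91.9%), against 69.4% of all genes. That included all 20 mitochondrial genes, 12 of 13 peroxisomal genes and 2 of 4 other targets. The median SD of the members was 0.26 in knockout controls and 0.13 in wild-type controls, against 0.16 and 0.12 over all genes. Under phenobarbital the medians were 0.14 and 0.08, and 28 of 37 members (75.7%) were more variable in knockout, close to the 74.4% of all genes. Without knockout control replicates 2, 6 and 7 the median SD of the members in knockout controls was 0.12, and that of all genes 0.11. These arrays were singled out for their deviation over all genes, so a smaller spread without them follows in part from that choice.

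**Figure D4:**
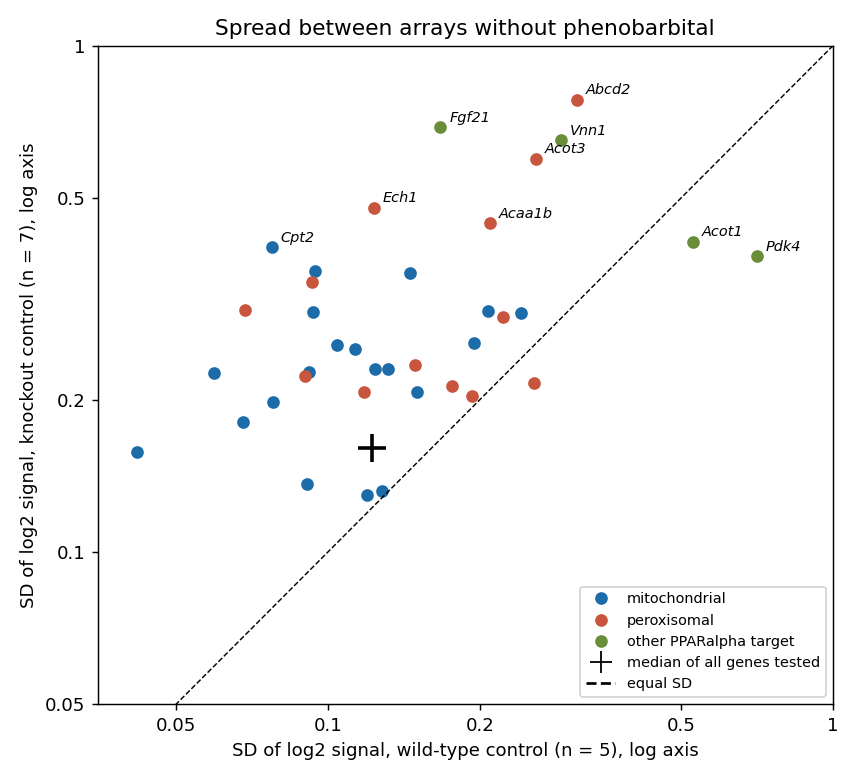
SD of the log2 signal between knockout controls (vertical, n = 7) against wild-type controls (horizontal, n = 5) for each tested member, both axes logarithmic; the cross is the median of all genes tested and the dashed line marks equal SD. Of the 37 points 34 lie above the line, and Pdk4, Acot1 and Decr2 lie below it.

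Where the spread came from differed between genes. Cpt2 read 10.12 to 10.31 in wild-type controls, and in knockout controls 10.25, 9.71, 10.25, 10.24, 10.23, 9.53 and 9.32 for replicates 1 to 7. Replicates 1, 3, 4 and 5 were within the wild-type range and replicates 2, 6 and 7 well below it. Ech1 read 10.91, 10.45, 11.22, 11.36, 11.50, 10.37 and 10.43 against 10.98 to 11.30 in wild type, where replicates 2, 6 and 7 were again the lowest. Acaa1b differed, with replicate 7 alone far down at 11.64 and the others at 12.65 to 12.96. For other genes the SD without replicates 2, 6 and 7 was as large or nearly so. It went from 0.26 to 0.27 for Bdh1, from 0.60 to 0.70 for Acot3, from 0.23 to 0.32 for Acot4, from 0.69 to 0.67 for Fgf21 and from 0.30 to 0.28 for Acot2.

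Array by array, the median deviation of the 20 mitochondrial genes from the wild-type control mean ran from -0.10 (17 of 20 genes below) to 0.14 (1 of 20 below) among the 5 wild-type controls themselves. It was 0.06, 0.07 and 0.07 in knockout controls 3, 4 and 5. In knockout controls 1, 2, 6 and 7 it was -0.08, -0.22, -0.27 and -0.52. Control 1 thus lay inside the wild-type range and the other 3 below it, and in control 7 all 20 genes lay below the wild-type mean. The median of the 13 peroxisomal genes was -0.15, -0.10, -0.31 and -0.51 in controls 1, 2, 6 and 7 and 0.03, 0.00 and 0.02 in controls 3, 4 and 5, so controls 1 and 2 stood in the other order than for the mitochondrial genes. In all 7 treated knockouts the mitochondrial median was below 0, from -0.03 to -0.32, whereas the 4 treated wild-type arrays ran from -0.05 to 0.04. Treated knockout 2 (-0.03) lay inside the range of the wild-type controls. The macrophage marker mean was 6.95 to 7.12 in knockout controls 3, 4 and 5 and 8.55, 9.04, 9.41 and 9.04 in controls 1, 2, 6 and 7. Stellate markers read 7.61 to 7.96 and 7.66 to 9.12 on the same arrays, and lymphocyte markers 5.10 to 5.12 and 5.45 to 5.69. Endothelial markers read 7.74 to 7.82 in controls 3, 4 and 5 and 7.98, 8.31, 8.43 and 7.65 in controls 1, 2, 6 and 7, so control 7 had the lowest endothelial mean of the knockout controls. Of the 12 macrophage markers none was below the filter's level on every knockout control. Among the treated knockouts, replicates 2 and 6 had the lowest macrophage means (6.88 and 7.18), with mitochondrial medians of -0.03 and -0.15. Replicates 1 and 3 had macrophage means of 7.61 and 7.86 and medians of -0.17 and -0.11. Replicates 4, 5 and 7 had the highest macrophage means (8.69, 8.82 and 8.82) and the lowest medians (-0.21, -0.30 and -0.32). The part that these cells have in the result was not tested.

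**Figure D5:**
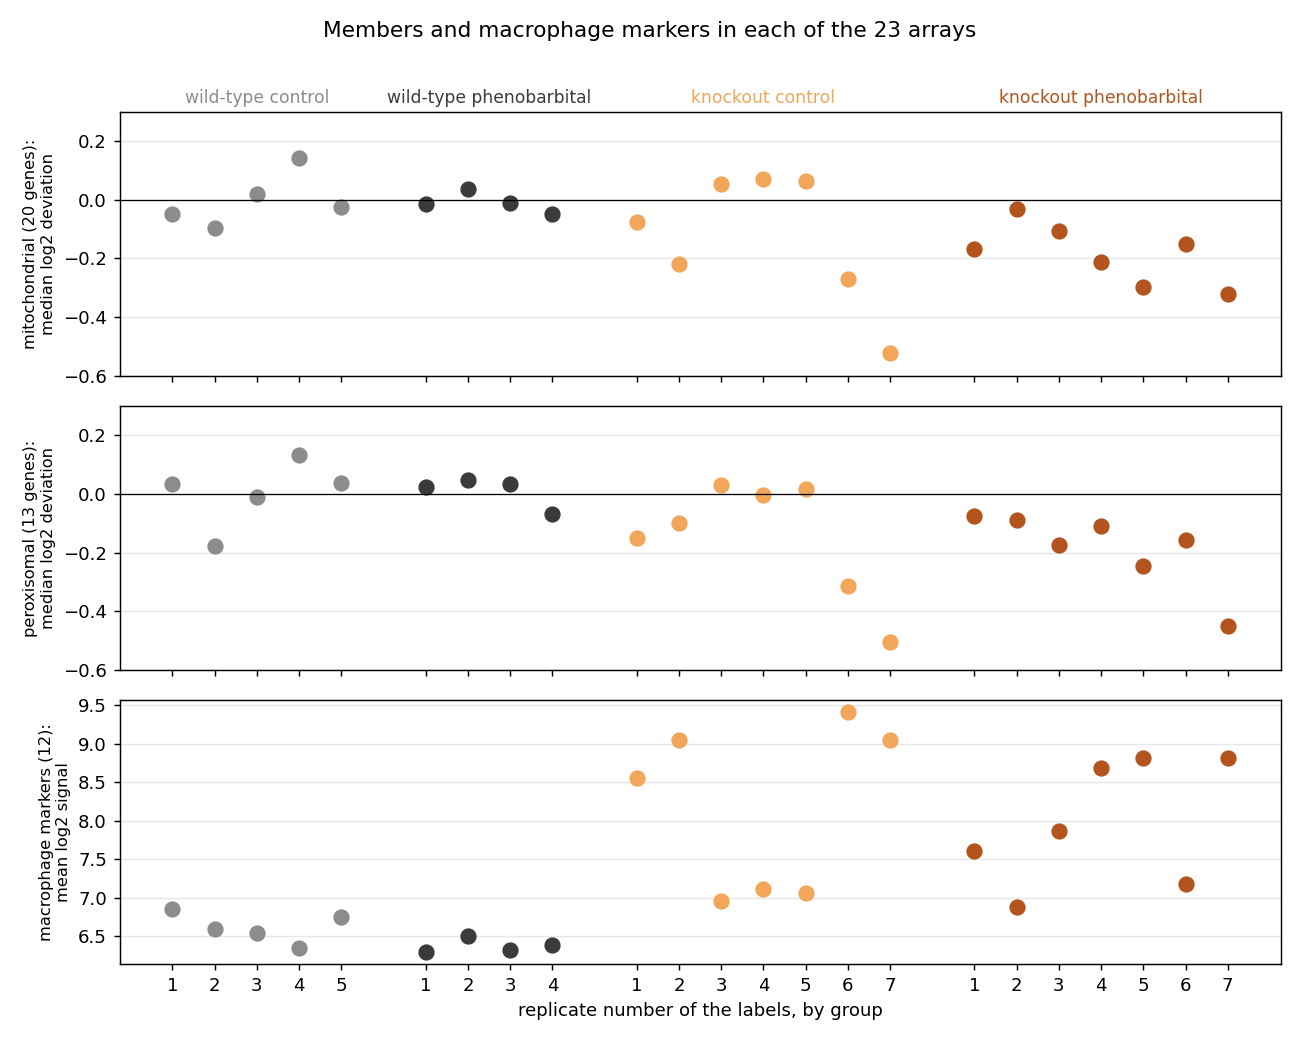
Each of the 23 arrays by group and replicate number: the median log2 deviation from the wild-type control mean over 20 mitochondrial genes (top) and 13 peroxisomal genes (middle), and the mean log2 signal of 12 macrophage markers (bottom). Knockout controls 3, 4 and 5 lie at the wild-type level in the upper panels and at 6.95 to 7.12 at the bottom. Controls 2, 6 and 7 are the lowest of the 7 knockout controls at the top, and lie at 9.04 to 9.41 at the bottom. Control 1 lies at -0.08 at the top and 8.55 at the bottom.

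Other genes of the pathway, 69 listed beside the members, extend the view to fatty acid uptake, acyl-CoA synthesis and regulators; 60 were tested. Without phenobarbital 19 of them fell in knockout (31.7%, against 10.1% of all genes) and 4 rose (6.67%, against 14.8%), with a median of -0.20. With phenobarbital 13 fell (21.7%, against 8.12% of all genes) and 4 rose (6.67%, against 11.9%), with a median of -0.18. Aldh3a2, which oxidizes fatty aldehydes, fell most, from 8.83 ± 0.39 to 6.02 ± 0.62 (n = 5 and 7; -2.80, SE 0.26, adjusted p = 1.48e-07), and with phenobarbital it fell by 2.91. The fatty acid binding protein Fabp2 fell by 0.93 (adjusted p = 0.00411; 0.0609 without knockout control replicates 2, 6 and 7) and, under phenobarbital, by 1.25. The lipase Mgll fell by 1.05 in treated livers (adjusted p = 0.0053). Ppara itself, the receptor gene, picked out after its values were seen, read 9.76 to 10.30 in wild-type controls and 8.48 to 9.86 in knockout controls (-0.67, SE 0.22, adjusted p = 0.0288). Leaving out any 1 of knockout controls 2, 6 and 7 (0.0528, 0.0606 and 0.058) or wild-type controls 2, 3 and 4 (0.0687, 0.0509 and 0.0748) ended the call, as did leaving out the 3 knockout controls together (0.329), within a range of 0.0143 to 0.329.

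Cd36 and Oxct1 rose most. The fatty acid transporter Cd36 read 5.79 to 7.49 in wild-type controls and 8.17 to 10.53 in knockout controls, a rise of 2.89 (SE 0.34, adjusted p = 3.81e-06), and rose by 2.48 under phenobarbital. Oxct1, the enzyme with which tissues other than hepatocytes use ketone bodies, read 5.28 to 6.47 against 6.47 to 8.55, a rise of 1.60 (SE 0.34, adjusted p = 0.00196), and rose by 1.59 under phenobarbital. Among the knockout controls both were highest on replicate 6, the array with the highest macrophage marker mean. Macrophages also express Cd36. With these 3 knockout controls (2, 6 and 7) left out the rises were 2.32 and 1.06 (adjusted p of 2.4e-05 and 0.0358), and the part of other cells was not tested. The brain form of the carnitine palmitoyltransferase, Cpt1c, rose by 0.33 without phenobarbital (adjusted p = 0.0368), a call that ended under 11 of 33 alternatives (0.00942 to 0.493), including those without any 1 of knockout controls 2, 6 and 7 (0.0768, 0.0806 and 0.0773) or wild-type controls 1, 2, 3 and 5 (0.0868, 0.0679, 0.0686 and 0.0504). Acsl4, an acyl-CoA synthetase, rose by 0.40 with it (adjusted p = 0.0436), and that call ended under 13 of 34 (0.00776 to 0.129), among them those without wild-type phenobarbital replicates 1, 3 or 4 (0.103, 0.119 and 0.0975), treated knockouts 4, 5 or 7 (0.0875, 0.0804 and 0.0862), knockout control 1 (0.0503) or wild-type controls 1, 3 or 5 (0.0505, 0.051 and 0.0506).

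Acaa1a, the peroxisomal thiolase next to Acaa1b, followed the same order of groups as Acot1. It read 8.71 to 8.99 in wild-type controls, 7.91 to 8.21 in treated wild type, 7.92 to 8.19 in knockout controls and 7.77 to 8.11 in treated knockouts. Only the wild-type controls stood apart, with no overlap. Phenobarbital lowered it by 0.80 in wild type (SE 0.07, adjusted p = 3.07e-07), and the knockout was lower by 0.77 without phenobarbital (SE 0.06, adjusted p = 2.84e-08). Its interaction passed (0.71, SE 0.09, adjusted p = 0.000146). Acaa1b, its copy among the members, had an interaction of -0.10 (interval -0.61 to 0.41). Among the other listed genes phenobarbital also raised the carnitine transporter Slc22a5 in wild type (0.44, SE 0.06, adjusted p = 0.000147) and lowered the acyl-CoA synthetase Acsl3 in knockout (-0.59, SE 0.13, adjusted p = 0.0176; 0.0583 with only the knockout arrays).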

How the data were processed

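Liver RNA was hybridised to 23 Affymetrix 3' arrays, with 4 or more arrays in each group. In the deposited table each probe set has a log2 signal, obtained by the authors through RMA in the affy package, per the submitters' processing notes; the versions are not given in the sources used here. Of 45037 probe sets, 34945 carried 1 gene in GEO's platform annotation, 932 several and 9160 none; those with several or none were not used, and 34741 symbols were updated through the gene number. Each of 18193 genes was represented by its probe set with the highest mean. Genes above an array's 40th percentile on at least 4 arrays were tested, 13826 in all. The number of arrays limits the precision.

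Group means were estimated on the 23 arrays (lmFit and eBayes of limma 3.58.1, R 4.3.3), with 5 comparisons and Benjamini-Hochberg adjustment over all tested genes. Intervals are limma's 95% intervals. The script was tested on simulated data. No covariate was used, because the labels do not say that the replicate numbers pair the samples. Alternatives changed the filter, the scaling, the choice of probe set, weights, a replicate block, the arrays fitted and each array left out. No pair of arrays was identical.

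The 40 members, the marker lists and the 69 other genes were chosen with earlier results of these data known. All members may be named. From the other genes, up to 3 called higher and 3 called lower with the largest change are named in each comparison, with Ppara added after its values were seen. Promoter sequences are RefSeq's, for GRCm38.p6. Of the 69 other genes, 9 are not reported here.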

Additional observations from a re-analysis of the deposited data

Results flagged for a closer look

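Of 148 sets of arrays (37 genes in 4 groups), 9 held an array far from the others of its group by Dixon's criterion. Chance alone marks about 1 in 20 such sets. Knockout control 7 was lowest in 4 of them: Hadh at 12.87 (the other arrays 13.23 to 13.41), Acadm at 12.22 (12.47 to 12.64), Crat at 7.498 (7.866 to 8.129) and Acaa1b at 11.64 (12.65 to 12.96). Wild-type control 4 was highest in Bdh1 at 11.52 (11.05 to 11.13) and in Acads at 9.662 (9.429 to 9.483). The others were Pex11a at 8.606 in treated knockout 7 (8.855 to 9.032), Acot3 at 6.724 in treated knockout 5 (5.572 to 6.048) and Acot4 at 6.655 in knockout control 1 (5.971 to 6.256). The phenobarbital effect on Acaa1a differed between the genotypes, with an interaction of 0.7139 on the log2 scale (limma, Benjamini-Hochberg adjusted p = 0.000146).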

How the results depend on the processing

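No called member changed direction under any of the alternatives. Bdh1, Eci2, Acot1 and Pdk4 without phenobarbital and Acadl, Bdh1, Decr2, Eci2 and Pdk4 with it passed under all 34. Numbers of called members moved more. With phenobarbital in wild type, 1 member was called higher with only the compared groups fitted, and 2 lower with array weights, with 1 weight per group and with only the compared groups; leaving out 1 array gave 0 to 1 lower. In knockout, phenobarbital gave 5 lower with array weights, 10 without knockout controls 2, 6 and 7, and 0 to 2 with 1 array left out. For knockout against wild type without phenobarbital, members called higher numbered 1 with a 60th-percentile filter, 1 with median centring, 3 with array weights, 2 with the replicate block, 4 without knockout controls 2, 6 and 7, and 0 to 4 with 1 array left out. Members called lower numbered 5 with the replicate block, 4 without these 3 arrays, and 6 to 11 with 1 array left out. With phenobarbital, 0 were higher with the mean of probe sets, 2 with array weights, 1 weight per group or only the compared groups, and 0 to 2 with 1 array left out; 18 were lower with array weights, 17 with 1 weight per group, 17 with only the compared groups, 20 without the 3 arrays, 10 with every probe set, and 5 to 12 with 1 array left out. For the interaction, 1 was lower with array weights, 1 without the 3 arrays, and 0 to 1 with 1 array left out. The median SD of the members in knockout controls was 0.257, and 0.116 without the 3 arrays, which were singled out for their deviation.

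Over all genes, 532 were called for phenobarbital in wild type, against 1503 with array weights, 1241 with 1 weight per group, 929 with only those groups, 810 without the 3 arrays, and 350 and 315 without wild-type phenobarbital replicates 1 and 3. In knockout 284 were called, against 461, 126, 100 and 786 in the same order, and 157 without treated knockout 1. Between the genotypes 3453 were called without phenobarbital, against 1967 with the replicate block, 2078 with only those groups and 1535 without the 3 arrays. With phenobarbital 2772 were called, against 4574 with array weights, 4576 with 1 weight per group, 1606 with the replicate block, and 1798 and 1846 without wild-type phenobarbital replicates 3 and 4. The interaction gave 121, against 323 with array weights, 273 without the 3 arrays, and 75, 63 and 78 without wild-type phenobarbital replicates 1, 3 and 4. Fits that leave out arrays or groups have fewer samples; the cause of the other changes was not tested. The labels do not say whether equal replicate numbers pair samples. In 29 same-numbered pairs the correlation of deviations ran from -0.695 to 0.628, and 5 exceeded 0.1, which does not settle it. With the replicate block the calls of Acadvl (adjusted p = 0.191), Acads (0.156), Etfa (0.0547) and Pex11a (0.0848) without phenobarbital and of Acaa1b (0.0735) with it ended.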
